A study of Mus musculus with 6 samples.

Results

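The heat shock proteins and chaperonins were examined in mouse embryonic stem cells (mES) and epiblast stem cells (EpiSC). The family was picked with earlier results of these data known, and its members were then chosen by name alone, as the non-control probes whose gene name in the scanner files begins with Hspa, Hspb, Hspc, Hspd, Hspe, Hsph or Hsp90, with Dnaja, Dnajb, Dnajc or Cct and a digit, or is Tcp1. They were 137 of 41174 probes, for 71 of 28786 genes, and 70 of these genes were among the 20688 tested. Dnajb7, a J protein gene known from testis, was well above background on 0 arrays and was not tested. Hspa9 is listed as Hspa9a and Dnajb2 as Dnajb10. A pair of genes matched by name only. Tmem208, a transmembrane protein gene that the files list as Hspc171, is no chaperone, and Hspbap1 encodes a protein known for binding the small heat shock protein Hspb1. Hspa1b, a near-identical neighbour of Hspa1a, has no name of its own among the probes used, and the 2 genes may share signal.

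RNA was measured on 6 one-colour Agilent arrays, 3 for each cell type, and the labels give no genotype or transgene. The mES samples were lines ESF122 (replicate 1), ESF175/1 (replicate 2) and a line that one label calls ESF58/2 and another ESF58/1 (replicate 3). The EpiSC samples were line EpiSC-5 (replicate 1) and line EpiSC-7 at passage 20 (replicate 2) and passage 25 (replicate 3), which leaves 2 lines among 3 samples. All grew on irradiated mouse embryonic fibroblasts in DMEM with KSR, BME, NEAA and L-glutamine, mES with LIF and EpiSC with FGF2, and no heat or other stress is named. ES lines are derived from blastocysts, before implantation, and EpiSC lines from the postimplantation epiblast.

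Molecular chaperones bind unfolded or aggregating proteins and help them reach or keep their native fold. Hsp70 proteins do so in cycles of ATP hydrolysis that J proteins start and nucleotide exchange factors, among them the Hsp110 proteins, end. Hsp90 acts later on kinases and receptors, small heat shock proteins hold unfolded chains without ATP, and the chaperonins fold proteins such as actin and tubulin inside a closed chamber. Separate sets serve the cytosol, the endoplasmic reticulum (ER) and the mitochondria. Heat and misfolded proteins induce the cytosolic genes through heat shock factors at heat shock elements, and ER stress induces the ER genes through ER stress elements.

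Values below are scaled signals, the processed intensity of a probe after each array was brought to a common 75th percentile, and levels are compared only between arrays for 1 probe. A log2 difference is the log2 fold change, EpiSC minus mES, with its standard error, and its adjusted p is that of limma over all 20688 genes, with a threshold of 0.05. Between 66.2% and 75.4% of the probes were well above background on an array, and no spot was saturated. All 5 mES markers tested were lower in EpiSC, all 6 EpiSC markers were higher, and none of the 3 shared pluripotency markers passed. Dppa3 was well above background on 0 EpiSC arrays and Cer1 on 0 mES arrays. Each entered the fit through its high group alone, so that their directions support nothing. Esrrb has no value on mES replicate 3. No slide of the 4 held both cell types, and the growth factor differed with cell type, so that slide, factor and cell type cannot be told apart. Of 15 fibroblast markers, 2 passed, both higher in EpiSC. Col1a2 has no value on mES replicate 3, and the other 14 were well above background on every array. The summed signal of these 14 was 55759.9, 17133 and 89226 on mES replicates 1 to 3 and 90273, 56388 and 43748 on EpiSC replicates 1 to 3. Within its group, it was lowest on mES replicate 2 and on EpiSC replicate 3. Tagln and Acta2, the 2 that passed, gave 27053 and 11169 of the sum on EpiSC replicate 3. The 15 markers' median log2 deviation from their means over the 6 arrays was 0.37, -1.62 and 1.23 on mES replicates 1 to 3. On EpiSC replicates 1 to 3 it was 1.03, 0.35 and -1.87, so that EpiSC replicate 3 was the lowest array by this measure. The design text calls the replicates biological, and every p-value rests on the spread among these 6 samples.

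Most members did not pass the test between the cell types. Of the 70 tested, 7 were higher in EpiSC (10.0%), 12 were lower (17.1%) and 51 did not pass (12 higher and 19 lower by limma's unadjusted p under 0.05). Over all genes tested, 11.8% were higher and 14.5% lower, so that the members' shares lay near the background in both directions. By the unadjusted p, 3615 of the 20688 genes were higher and 4955 lower. The counts of families and lists below are to be read beside the shares of all genes, the unadjusted ones beside these numbers. The 3 EpiSC values lay wholly above the 3 mES values for 13 members (18.6%, against 20.0% of all genes) and wholly below them for 25 (35.7%, against 28.6%), and over both directions 48.5% of all genes did not overlap. The members' median log2 difference was -0.29, where that of all genes was -0.11, and 35 of the 70 lay between -0.5 and 0.5. The changes that passed were at least 2-fold for 9 genes, of which 7 were lower and 2 higher in EpiSC. Without the arrays lowest in fibroblast markers (mES replicate 2 and EpiSC replicate 3), 0 members were higher and 2, Hspb1 and Hspbap1, were lower by limma (6 and 10 at an unadjusted p under 0.05), and 3.92% and 3.39% of all genes passed. Among the arrays at slide position 4 alone, 1 member was higher (1.43%) and 4 were lower (5.71%), where 5.65% and 6.89% of all genes were. In the 6 fits that each left out 1 array, 1 to 7 members were higher (1.43% to 10.0%) and 6 to 11 lower (8.57% to 15.7%). Of all genes, 6.52% to 10.3% were higher and 7.41% to 13.2% lower in these fits. Each array left out other than EpiSC replicate 2 gave at most 3 higher and 7 lower. The split of calls also moved with the scaling. It was 9 higher and 9 lower by quantile normalization, where 13.8% and 13.4% of all genes were. By median scaling it was 7 higher and 7 lower, where 12.9% and 11.6% of all genes were.

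**Figure D1:**
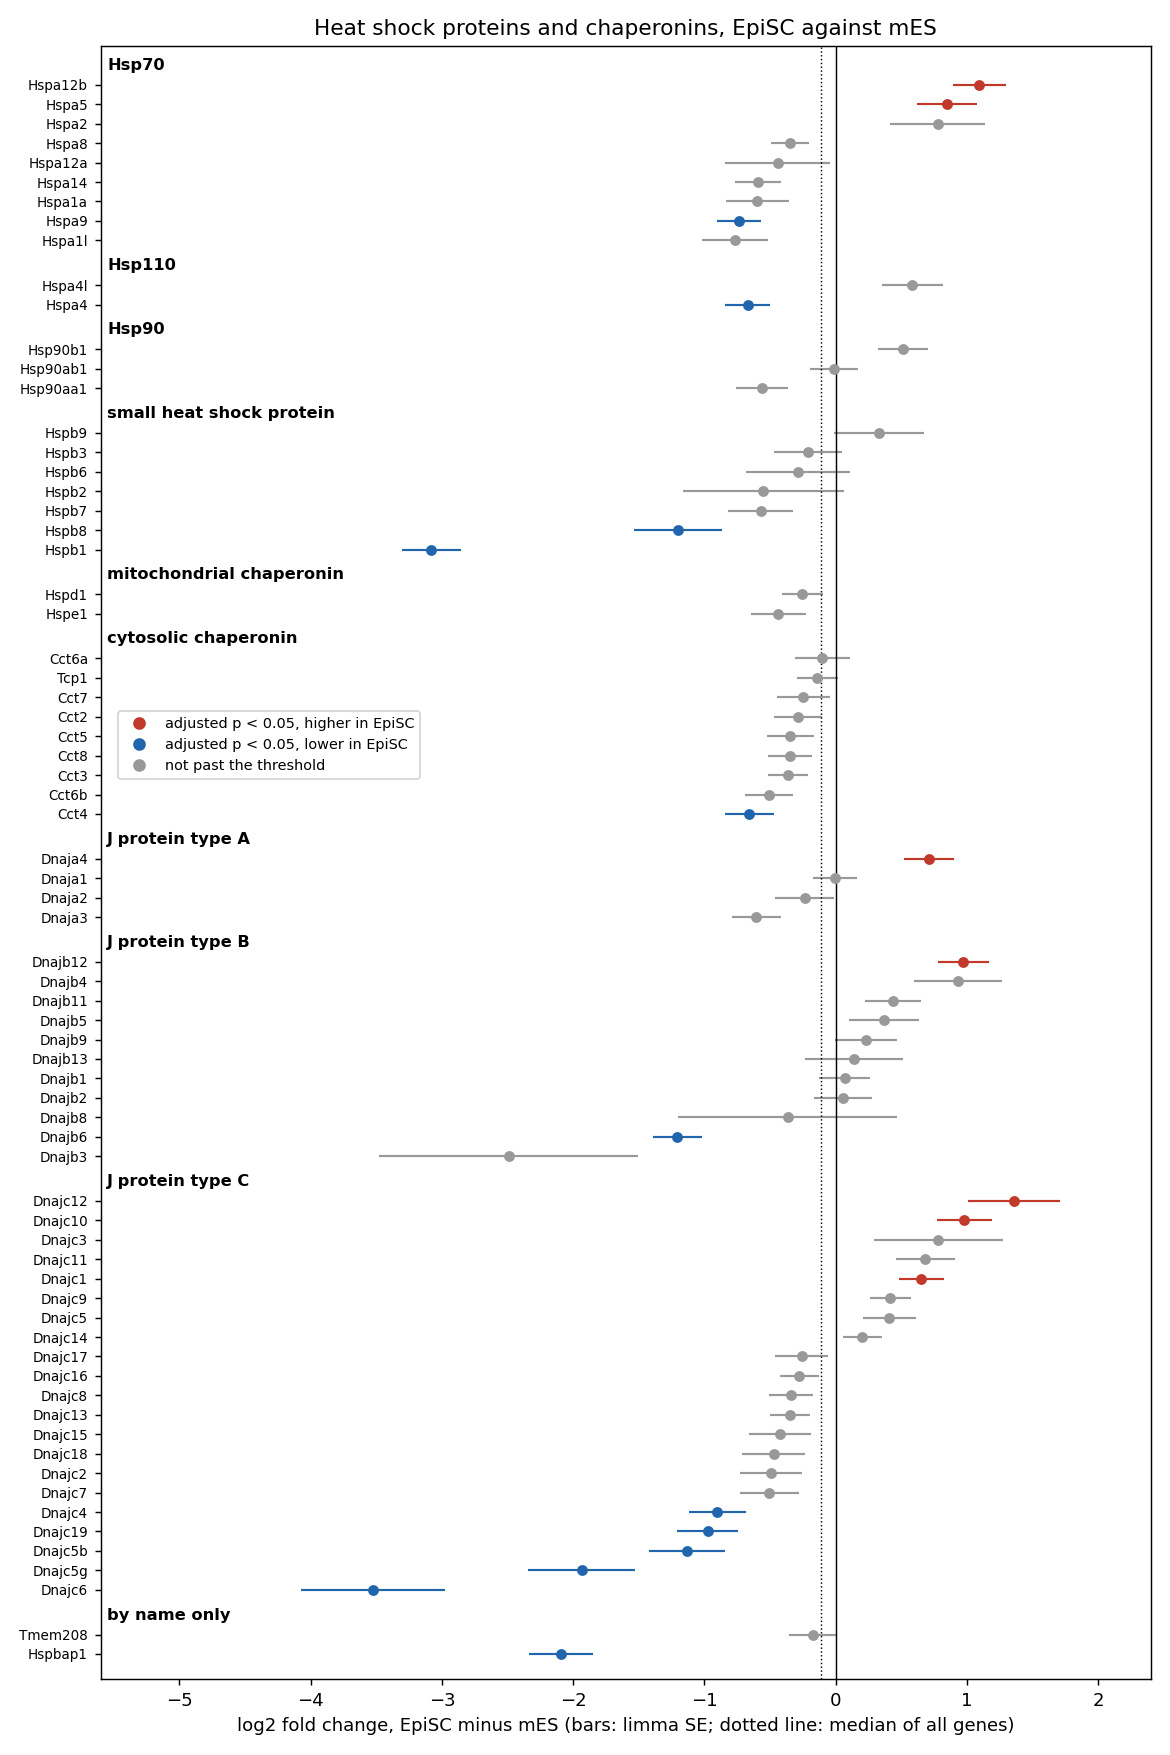
The log2 difference, EpiSC minus mES, of each of the 70 members tested (horizontal axis; bars are limma's standard errors from 3 arrays a group), grouped by family, with the median of all genes as a dotted line. Most points lie between -1 and 1, and those of Dnajc6, Hspb1 and Dnajb3 lie furthest below 0.

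The small heat shock proteins held the change with the lowest adjusted p of the members. Of 7 genes tested, 2 were lower in EpiSC, 0 were higher and 5 did not pass. The counts by limma's unadjusted p under 0.05 were also 2 and 0. Over all genes tested, 14.5% were lower and 11.8% higher by the adjusted p. Hspb1 had scaled signals of 16640, 20954 and 28215 on mES replicates 1 to 3 and of 2532, 2486 and 2569 on EpiSC replicates 1 to 3. Its mES values were all several times the EpiSC values, which lay close together. The log2 difference was -3.08 ± 0.22, 8.47-fold lower in EpiSC (adjusted p = 0.000559). Hspb1 (Hsp25 in mouse) is a heat-inducible holdase known for binding actin filaments. It passed in each of the 19 alternatives, with log2 differences from -3.27 to -2.88, on the 1 probe that entered, and its other probe was well above background on 0 arrays. In bulk RNA, fewer cells with a transcript and less transcript per cell cannot be told apart.

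Hspb8 had scaled signals of 1380.4, 1213 and 2655 on mES replicates 1 to 3 and of 604, 699 and 867 on EpiSC replicates 1 to 3. The groups did not overlap, and mES replicate 3 was the highest. Hspb8, which works with Bag3 in the clearance of misfolded proteins, was 2.3-fold lower in EpiSC (log2 difference -1.20 ± 0.33, adjusted p = 0.0411). Hspb8 did not pass without mES replicate 1 or EpiSC replicate 1, 2 or 3 (log2 differences from -1.42 to -0.86 and adjusted p up to 0.121 over the 6 fits with 1 array left out), nor by median scaling or with the EpiSC-7 arrays averaged. Hspb2, Hspb3, Hspb6, Hspb7 and Hspb9 had overlapping groups and log2 differences from -0.57 to 0.33, and Hspb3 and Hspb6 were well above background on only 2 of 3 mES arrays. Hspbap1 had scaled signals of 21220.2, 21487 and 15838 on mES replicates 1 to 3 and of 4065, 5989.9 and 3833 on EpiSC replicates 1 to 3. Here too the groups lay far apart. The log2 difference of Hspbap1 was -2.09 ± 0.24, 4.26-fold lower in EpiSC (adjusted p = 0.0027), and it passed in each of the 19 alternatives.

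**Figure D2:**
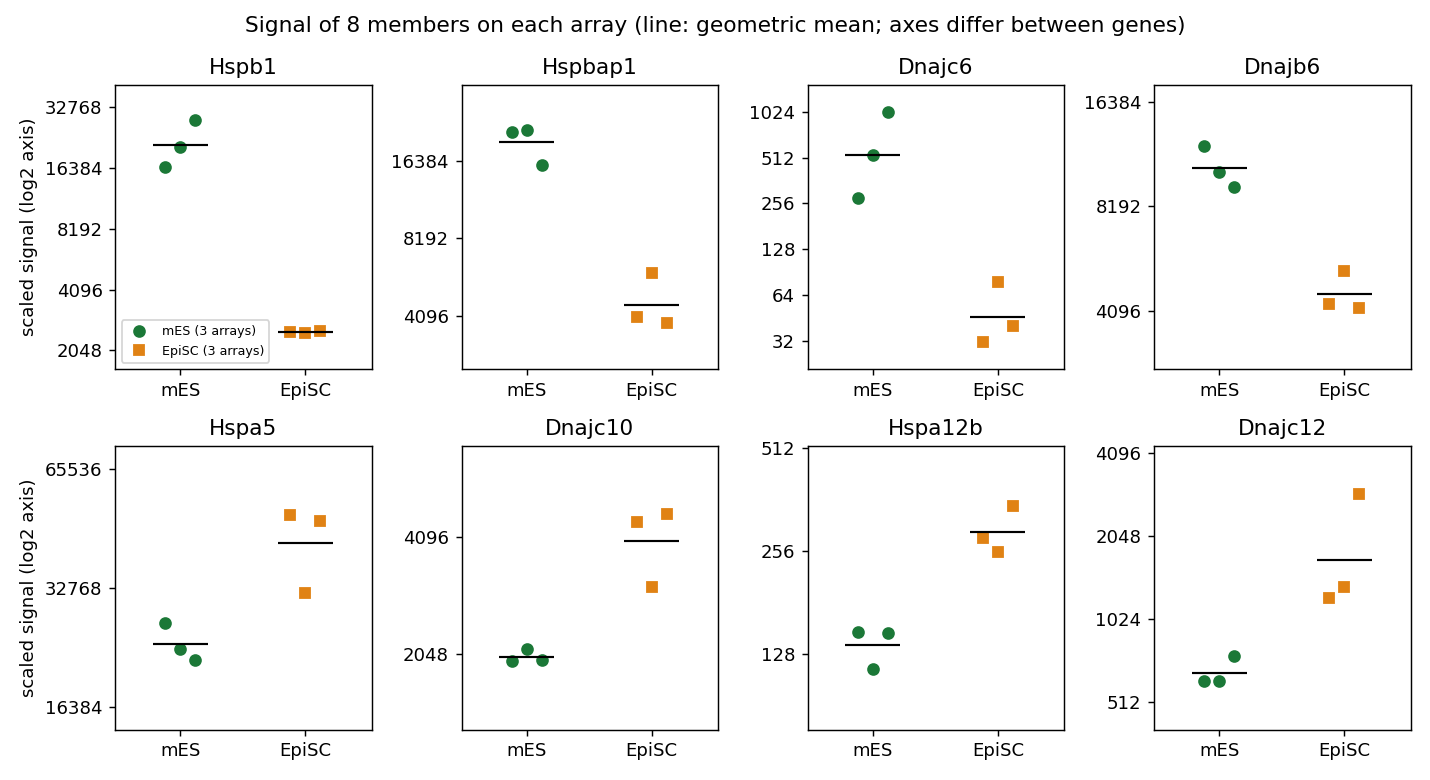
Scaled signal on a log2 axis for 8 members on each of the 3 mES and 3 EpiSC arrays, with the geometric mean of each group as a line. In every panel the groups are separate, from 11.5-fold lower in EpiSC for Dnajc6 to 2.57-fold higher for Dnajc12.

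The upstream sequence of Hspb1 holds heat shock half-sites and is shown for its large difference, that of Dnajb6 because it is the member past the threshold with a full heat shock element. Both come from RefSeq's windows of 250 bases before to 50 after each gene's start (build GRCm38.p6), which were found for 58 of the 71 genes, in 76 windows. The full element was searched as the triplets GAA, TTC and GAA with any 2 bases between neighbours, or as its reverse complement. The pair of half-sites that it contains was searched as GAANNTTC or TTCNNGAA, each of which reads the same on both strands. Capitals mark the matches, the pair in Hspb1 (chr5:135887779-135887918, plus strand) and the full element in Dnajb6 (chr5:29735758-29735897, plus strand).
Hspb1: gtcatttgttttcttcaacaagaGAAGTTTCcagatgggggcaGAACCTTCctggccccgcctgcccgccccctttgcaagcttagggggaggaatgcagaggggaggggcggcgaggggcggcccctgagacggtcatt
Dnajb6: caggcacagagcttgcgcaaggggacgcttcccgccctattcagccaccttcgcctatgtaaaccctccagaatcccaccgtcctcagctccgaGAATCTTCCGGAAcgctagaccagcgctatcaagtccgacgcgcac
The Hspb1 matches begin at positions -117 and -97 relative to the start. The Dnajb6 match begins at -46 from the start shown and at -127 from another annotated start. The full element stood in 0.603% of 32851 windows and in those of 3 member genes, Dnajb6, Hspd1 and Hspe1. Hspd1 and Hspe1 lie head to head on chromosome 1, and their windows share the same matches. The half-site pair stood in 15.1% of all windows and in 22.4% of the member windows, of 16 genes. A match is a description of the letters and not of binding.

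Among the cytosolic Hsp70 and Hsp90 genes, the abundant and the heat-inducible ones did not pass the test. Hspa8 had scaled signals of 147578, 144411 and 139866 on mES replicates 1 to 3 and of 111380, 115840 and 112750 on EpiSC replicates 1 to 3. Every EpiSC value lay below every mES value, by a small margin. Hspa8, the constitutive Hsp70 (Hsc70), had a log2 difference of -0.34 ± 0.14 (adjusted p = 0.122). It passed when slide was a random block and with a mean-variance trend. Hspa1a had scaled signals of 622, 946 and 1090.0 on mES replicates 1 to 3 and of 586, 533 and 594 on EpiSC replicates 1 to 3. The groups did not overlap but nearly met. Hspa1a, the classical heat-induced Hsp70, had a log2 difference of -0.60 ± 0.24 (adjusted p = 0.113), and passed without mES replicate 1 and when slide was a random block.

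Hsp90aa1 had scaled signals of 174104, 163510 and 168414 on mES replicates 1 to 3 and of 97499, 144820 and 105986 on EpiSC replicates 1 to 3. EpiSC replicate 2 was nearest to the mES arrays, and the groups did not overlap. Hsp90aa1, the inducible cytosolic Hsp90, had a log2 difference of -0.56 ± 0.20 (adjusted p = 0.0815). It passed without EpiSC replicate 2 and by normexp, the slide as a random block or a mean-variance trend. Hsp90ab1 had scaled signals of 129361, 127406 and 137138 on mES replicates 1 to 3 and of 121457, 114622 and 157681 on EpiSC replicates 1 to 3. These groups overlapped widely. Hsp90ab1, the constitutive cytosolic Hsp90, had a log2 difference of -0.01 ± 0.18 (adjusted p = 0.962).

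A pair of J proteins that work with cytosolic Hsp70 also overlapped between the groups by their brightest probes. Dnaja1 had a log2 difference of -0.01 ± 0.17 (adjusted p = 0.981) and Dnajb1, the main J protein induced by heat, of 0.07 ± 0.19 (adjusted p = 0.808). The dimmer probes of Dnaja1 gave log2 differences of 0.38 and 0.70, each with all EpiSC values above all mES values. Neither passed in the fit over every probe (limma, adjusted p = 0.231 and 0.0691). The dimmer probe of Dnajb1 gave -0.31 and did not pass. The signs of Hsp90ab1, Dnaja1 and Dnajb1 turned under some alternatives, Hspa8's under quantile normalization. Of the 6 cytosolic members grouped as heat-inducible (Hspa1a, Hspb1, Hsp90aa1, Dnaja1, Dnajb1 and Hspa8, which is made without heat too), Hspb1 alone passed, and 3 were lower by limma's unadjusted p under 0.05. Their median log2 difference was -0.45, but -0.0073, with 3 positive and 3 negative, by quantile normalization. This set was picked with earlier results known, and carries no test.

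Of the other cytosolic Hsp70-type genes, 1 was higher in EpiSC and 1 Hsp110 gene was lower. Hspa12b had scaled signals of 149, 116 and 148 on mES replicates 1 to 3 and of 279.8, 255 and 347 on EpiSC replicates 1 to 3. The EpiSC arrays were all well above the mES arrays. Hspa12b, an atypical Hsp70 known from endothelial cells, was 2.14-fold higher in EpiSC (log2 difference 1.10 ± 0.20, adjusted p = 0.0114), and passed in all 6 fits with 1 array left out. It did not pass at position 4 of the slides alone or with the 2 arrays low in fibroblast markers left out. Hspa4 had scaled signals of 14441, 14715 and 13217 on mES replicates 1 to 3 and of 7714, 10081 and 8979 on EpiSC replicates 1 to 3. The groups did not overlap. Hspa4, an Hsp110-type exchange factor, was 1.59-fold lower in EpiSC (log2 difference -0.67 ± 0.17, adjusted p = 0.0331). In the fit over every probe, 2 of its 4 probes passed, at -0.67 and -0.75, while the others gave -0.06 and 0.02. Hspa4 did not pass without mES replicate 1, 2 or 3 or EpiSC replicate 1 or 3 (log2 differences from -0.76 to -0.57 and adjusted p up to 0.104 over the 6 fits with 1 array left out), nor by median scaling.

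Its relative Hspa4l did not pass by its brightest probe (log2 difference 0.58 ± 0.23, adjusted p = 0.109). In the fit over every probe, 2 of its other probes passed, with log2 differences of 1.39 and 0.89. Hspa14, which binds ribosomes together with a J protein partner, had a log2 difference of -0.59 ± 0.18 (adjusted p = 0.0509) with all EpiSC values below the mES values. Hspa1l and Hspa2, Hsp70 genes best known from testis, had log2 differences of -0.77 ± 0.25 and 0.78 ± 0.36 and did not pass (adjusted p = 0.0678 and 0.156).

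The members that face the lumen of the ER had positive log2 differences throughout. Of the 7 genes, 3 were higher in EpiSC (Hspa5, Dnajc10 and Dnajc1), 0 were lower and 4 did not pass, with a median log2 difference of 0.65 and a range from 0.23 to 0.98. By limma's unadjusted p under 0.05, 4 were higher and 0 lower. Over all genes tested, 11.8% were higher and 14.5% lower by the adjusted p. This grouping by place in the cell was made with the values known and carries no test. All 7 stayed positive in the 18 alternatives that keep 1 probe a gene, the scalings included, and 0 to 5 passed (2 with position on the slide as a block). Leaving out mES replicate 1, mES replicate 2, EpiSC replicate 1 or EpiSC replicate 3 left 0 passing (3 or 4 by limma's unadjusted p under 0.05), and leaving out mES replicate 3 left 1.

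Hspa5 had scaled signals of 26819, 22949 and 21559 on mES replicates 1 to 3 and of 50171, 31894 and 48581 on EpiSC replicates 1 to 3. Every EpiSC array was above every mES array, and EpiSC replicate 2 was the lowest of the EpiSC arrays. Hspa5 (BiP), the Hsp70 of the ER and a regulator of the ER stress sensors, was 1.8-fold higher in EpiSC (log2 difference 0.85 ± 0.23, adjusted p = 0.0388). Hspa5 did not pass without mES replicate 1, 2 or 3 or EpiSC replicate 1 or 3 (log2 differences from 0.73 to 1.06 and adjusted p up to 0.118 over the 6 fits with 1 array left out), nor with position on the slide as a block. Dnajc10 had scaled signals of 1970.4, 2110.4 and 1981 on mES replicates 1 to 3 and of 4460.3, 3039 and 4676 on EpiSC replicates 1 to 3. The pattern was that of Hspa5, with EpiSC replicate 2 nearest to mES. Dnajc10 (ERdj5), a J protein that reduces disulfide bonds, was 1.97-fold higher (log2 difference 0.98 ± 0.21, adjusted p = 0.0193), and 3 of its 4 probes passed. Dnajc10 did not pass without mES replicate 1 or 2 or EpiSC replicate 1 or 3 (log2 differences from 0.87 to 1.18 and adjusted p up to 0.0678 over the 6 fits with 1 array left out).

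Dnajc1 had scaled signals of 1231, 1278 and 1278 on mES replicates 1 to 3 and of 2029.8, 1693 and 2273 on EpiSC replicates 1 to 3. The mES arrays lay close together below all EpiSC arrays. Dnajc1 (ERdj1), a J protein of the ER membrane near ribosomes, was 1.57-fold higher (log2 difference 0.65 ± 0.17, adjusted p = 0.0364). Dnajc1 did not pass without mES replicate 1, 2 or 3 or EpiSC replicate 1 or 3 (log2 differences from 0.56 to 0.77 and adjusted p up to 0.107 over the 6 fits with 1 array left out). Hsp90b1 had scaled signals of 43887, 38049.5 and 30989.8 on mES replicates 1 to 3 and of 55622, 48386 and 55988 on EpiSC replicates 1 to 3. The groups did not overlap. Hsp90b1 (Grp94), the Hsp90 of the ER, had a log2 difference of 0.51 ± 0.19 (adjusted p = 0.0912). It passed by normexp, quantile normalization, the slide as a random block and a mean-variance trend.

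Dnajc3 had scaled signals of 938, 863 and 674 on mES replicates 1 to 3 and of 2260.2, 633 and 1942 on EpiSC replicates 1 to 3. EpiSC replicates 1 and 3 were far above the mES arrays, and EpiSC replicate 2 was below them all. Dnajc3 (P58IPK), a J protein of the ER lumen, did not pass (log2 difference 0.78 ± 0.49, adjusted p = 0.27). Dnajb11 (ERdj3) had a log2 difference of 0.44 ± 0.21 and Dnajb9 (ERdj4) of 0.23 ± 0.24, and neither passed (adjusted p = 0.173 and 0.489). EpiSC replicate 2, the passage 20 culture of EpiSC-7, was the lowest EpiSC array for 6 of these 7 genes, against 5279 of the 20688 genes tested. The median of the 7 genes around their EpiSC mean was 0.12, -0.38 and 0.20 on EpiSC replicates 1 to 3. The summed fibroblast signal was highest on EpiSC replicate 1 and, of the EpiSC arrays, lowest on EpiSC replicate 3, and the ER members were high on both; its part in the result was not tested.

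**Figure D3:**
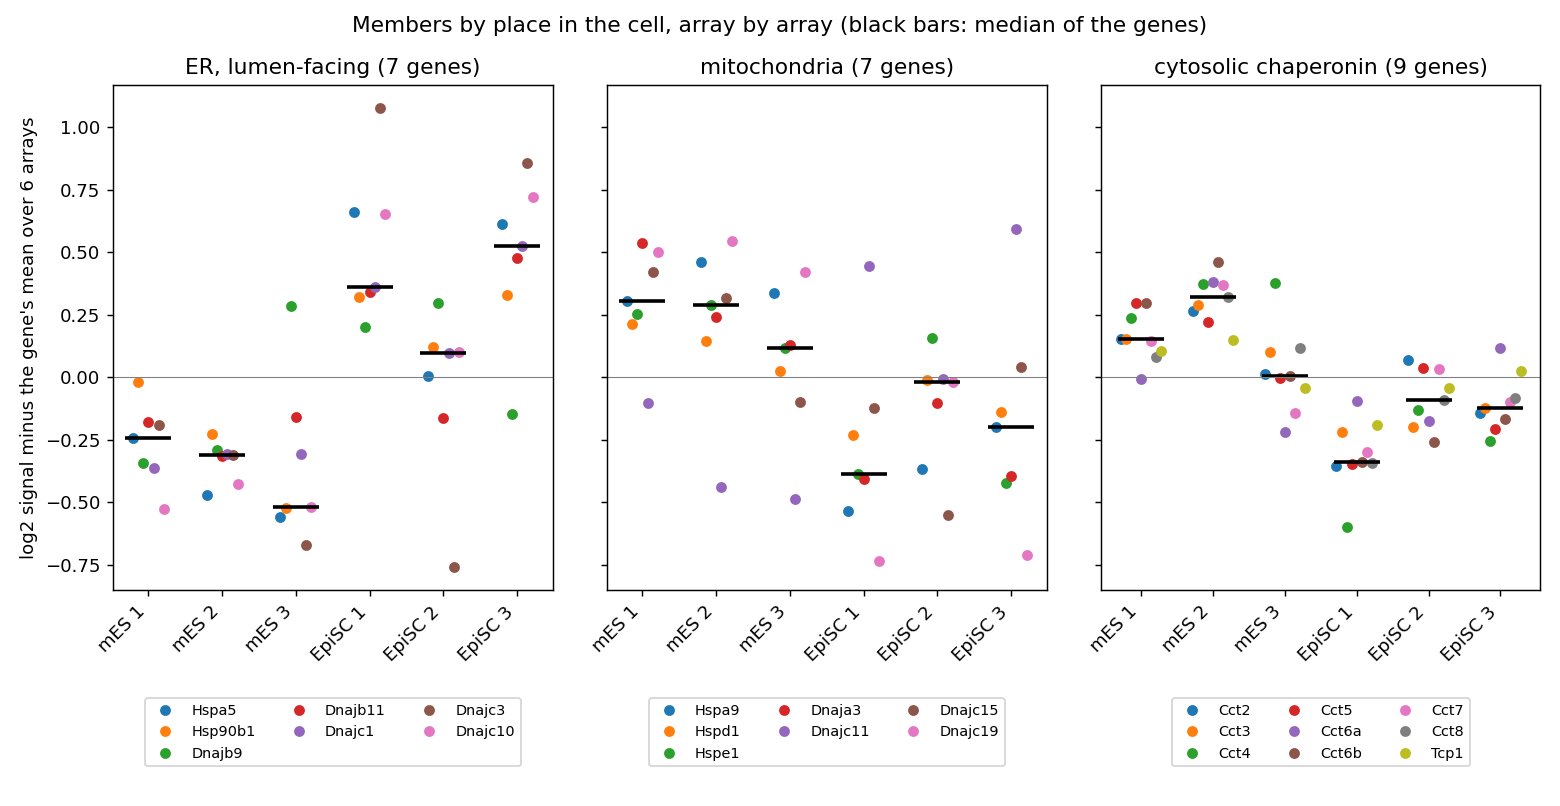
The log2 signal of each member minus its own mean over the 6 arrays, for the 7 ER, 7 mitochondrial and 9 cytosolic chaperonin members, with black bars for the median on each array. The ER medians run from -0.52 to -0.25 on mES and from 0.10 to 0.52 on EpiSC, and those of the other sets are higher on the mES arrays.

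Of the ER members, Hspa5, Hsp90b1 and Dnajc3 hold the ER stress element in their windows, and these are shown because the ER members had log2 differences of one sign. The element was searched on both strands as CCAAT and CCACG with any 9 bases between them, and stood in 39 of 32851 windows (0.119%) and in 3 of the 76 member windows. Capitals mark it in Hspa5 (chr2:34771990-34772089, plus strand), Hsp90b1 (chr10:86705445-86705684, minus strand) and Dnajc3 (chr14:118937812-118937931, plus strand), all from RefSeq, GRCm38.p6.
Hspa5: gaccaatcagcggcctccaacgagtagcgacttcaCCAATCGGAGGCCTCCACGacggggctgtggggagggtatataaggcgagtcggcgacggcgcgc
Hsp90b1: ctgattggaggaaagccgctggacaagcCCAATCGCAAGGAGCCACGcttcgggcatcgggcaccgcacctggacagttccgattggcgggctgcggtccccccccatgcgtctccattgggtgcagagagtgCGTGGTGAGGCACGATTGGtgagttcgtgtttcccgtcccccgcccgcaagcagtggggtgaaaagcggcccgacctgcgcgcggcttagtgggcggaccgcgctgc
Dnajc3: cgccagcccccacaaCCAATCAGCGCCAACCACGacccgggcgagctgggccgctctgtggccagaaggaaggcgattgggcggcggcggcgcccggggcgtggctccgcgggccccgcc
The match begins at position -65 in Hspa5, at -105 in Dnajc3, and at -212 and -107, once on each strand, in Hsp90b1. Hspa5 passed the test, whereas the other 2 genes with the element did not. Dnajc1 and Dnajc10 also passed, and their windows do not hold these letters.

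The mitochondrial members had mostly negative log2 differences, and few passed. Of the 7 genes, 2 were lower (Hspa9 and Dnajc19), 0 were higher and 5 did not pass (3 lower and 1 higher by limma's unadjusted p under 0.05). Over all genes tested, 14.5% were lower and 11.8% higher. The median log2 difference of the 7 was -0.44. This grouping too was made with the values known. The number lower fell to 0 without mES replicate 1, mES replicate 2 or EpiSC replicate 1 (2 or 3 by the unadjusted p) and to 1 without any other single array. Hspa9 had scaled signals of 34962, 38919.8 and 35677 on mES replicates 1 to 3 and of 19520.2, 21929 and 24667 on EpiSC replicates 1 to 3. All mES values were above all EpiSC values. Hspa9 (mortalin), the Hsp70 of the mitochondrial matrix and of its import motor, was 1.66-fold lower in EpiSC (log2 difference -0.73 ± 0.17, adjusted p = 0.0224), and both its probes passed. Hspa9 did not pass without mES replicate 1 or 2 or EpiSC replicate 1 or 2 (log2 differences from -0.82 to -0.65 and adjusted p up to 0.0773 over the 6 fits with 1 array left out), nor by quantile normalization or by median scaling.

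Dnajc19 had scaled signals of 22154, 22851 and 20956 on mES replicates 1 to 3 and of 9419, 15483 and 9580.3 on EpiSC replicates 1 to 3. EpiSC replicate 2 stood between the mES arrays and the other two EpiSC arrays, with no overlap. Dnajc19, a J protein of the inner mitochondrial membrane, was 1.97-fold lower (log2 difference -0.97 ± 0.24, adjusted p = 0.0274). Dnajc19 did not pass without mES replicate 1, 2 or 3 or EpiSC replicate 1 or 3 (log2 differences from -1.21 to -0.85 and adjusted p up to 0.0898 over the 6 fits with 1 array left out). Its other, much dimmer probe gave 0.32 and did not pass. Hspd1 had scaled signals of 106074, 101222 and 93223 on mES replicates 1 to 3 and of 78125, 90918 and 83207 on EpiSC replicates 1 to 3. The groups did not overlap but lay close. Hspd1 (Hsp60), the mitochondrial chaperonin, had a log2 difference of -0.25 ± 0.16 (adjusted p = 0.265), with a positive sign of 0.13 under quantile normalization.

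Hspe1 had scaled signals of 32749, 33603 and 29828 on mES replicates 1 to 3 and of 21043, 30649 and 20512 on EpiSC replicates 1 to 3. EpiSC replicate 2 lay among the mES values. Hspe1 (Hsp10), the lid of Hsp60, had a log2 difference of -0.44 ± 0.21 (adjusted p = 0.165), and passed when slide was a random block. Dnaja3, the J protein partner of mortalin, had -0.60 ± 0.19 and Dnajc15 -0.42 ± 0.23, and neither passed (adjusted p = 0.0582 and 0.219). Dnajc11 had the opposite sign at 0.69 ± 0.22 (adjusted p = 0.0648), while its much dimmer probe gave -0.33 and did not pass.

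The cytosolic chaperonin TRiC, a ring of 8 different subunits, showed small differences of one sign. All 9 genes had negative log2 differences, from -0.66 to -0.10 with a median of -0.34, but by quantile normalization 4 of the 9 were positive and the median was -0.03. Only Cct4 passed, and 4 of the 9 genes had EpiSC values wholly below the mES values, as 28.6% of all genes did. Cct4 had scaled signals of 43069, 47249 and 47436 on mES replicates 1 to 3 and of 24153, 33362 and 30622 on EpiSC replicates 1 to 3. The groups were separate. Cct4 was 1.58-fold lower in EpiSC (log2 difference -0.66 ± 0.18, adjusted p = 0.0427), while its dimmer probe gave 0.09. Cct4 did not pass without mES replicate 1, 2 or 3 or EpiSC replicate 1 or 3 (log2 differences from -0.75 to -0.52 and adjusted p up to 0.121 over the 6 fits with 1 array left out), nor by quantile normalization, by median scaling or with the EpiSC-7 arrays averaged.

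The other subunits did not pass, with log2 differences of -0.29 ± 0.18 for Cct2, -0.36 ± 0.15 for Cct3, -0.34 ± 0.18 for Cct5, -0.10 ± 0.21 for Cct6a, -0.24 ± 0.20 for Cct7, -0.35 ± 0.17 for Cct8 and -0.14 ± 0.16 for Tcp1. Their adjusted p ran from 0.121 for Cct3 to 0.742 for Cct6a. Cct6b, the form of the sixth subunit known from testis, had -0.51 ± 0.18 (adjusted p = 0.0828). Cct6b passed by normexp, when slide was a random block and with a mean-variance trend, and Cct3 when slide was a random block. A second, dimmer probe of Tcp1 passed in the fit over every probe, with a log2 difference of -0.94. Cct2 illustrates the size of the differences. Cct2 had scaled signals of 92309.5, 99861 and 83873 on mES replicates 1 to 3 and of 64934, 87136 and 75137 on EpiSC replicates 1 to 3. The groups overlapped, with EpiSC replicate 2 above mES replicate 3.

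The J proteins, which bring substrates to Hsp70 and start its ATP hydrolysis, were the most numerous members. Of 36 tested, 5 were higher in EpiSC (13.9%), 6 were lower (16.7%) and 25 did not pass. Over all genes tested, 11.8% were higher and 14.5% lower, so that the J proteins' shares lay near the background. The J proteins' median log2 difference was -0.12 beside the -0.11 of all genes. Of those that passed, Dnajc6 and Dnajc5g had the largest decreases and Dnajc12 the largest increase, all of type C, whose members share little beyond the J domain. Dnajc6 had scaled signals of 276, 529 and 1023 on mES replicates 1 to 3 and of 31.4, 78.6 and 39.8 on EpiSC replicates 1 to 3. The mES arrays differed widely among themselves and all lay above the EpiSC arrays. Dnajc6 (auxilin), which uncoats clathrin vesicles with Hsc70 and is known from neurons, was 11.5-fold lower in EpiSC (log2 difference -3.52 ± 0.55, adjusted p = 0.00676). It passed in all 6 fits with 1 array left out but not without the arrays low in fibroblast markers.

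Dnajc5g had scaled signals of 144, 84.8 and 111 on mES replicates 1 to 3 and of 49.8, 27.7 and 17.6 on EpiSC replicates 1 to 3. The groups did not overlap, on dim signals. Dnajc5g, a cysteine string protein known from testis, was 3.82-fold lower (log2 difference -1.93 ± 0.41, adjusted p = 0.018), and both its probes passed. Dnajc5g did not pass without mES replicate 1 or EpiSC replicate 2 (log2 differences from -2.32 to -1.57 and adjusted p up to 0.0553 over the 6 fits with 1 array left out). Dnajc5b had scaled signals of 32.3, 69.7 and 45.4 on mES replicates 1 to 3 and of 22.0, 20.2 and 21.9 on EpiSC replicates 1 to 3. The EpiSC values were close to one another and below all mES values. Dnajc5b, also a cysteine string protein of testis, was 2.19-fold lower (log2 difference -1.13 ± 0.29, adjusted p = 0.0334). Dnajc5b did not pass without mES replicate 2 or 3 or EpiSC replicate 1, 2 or 3 (log2 differences from -1.40 to -0.84 and adjusted p up to 0.0912 over the 6 fits with 1 array left out), nor by quantile normalization, by median scaling or with the EpiSC-7 arrays averaged. In the set of 9 tested members first known from or enriched in testis, 2 were lower, 0 were higher (5 and 0 by limma's unadjusted p under 0.05) and the median log2 difference was -0.51. Of all genes 14.5% were lower and 11.8% higher (4955 and 3615 of 20688 by the unadjusted p). This set too was picked with earlier results known, and carries no test.

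Dnajb6 had scaled signals of 12222, 10309 and 9347 on mES replicates 1 to 3 and of 4306, 5335 and 4188 on EpiSC replicates 1 to 3. The mES values were all above the EpiSC values. Dnajb6, which suppresses aggregation of polyglutamine proteins and is needed for the mouse placenta, was 2.3-fold lower in EpiSC (log2 difference -1.20 ± 0.19, adjusted p = 0.00687). It passed in all 6 fits with 1 array left out but not without the arrays low in fibroblast markers, and its 2 dimmer probes did not pass, at -0.52 and -0.15. Dnajc4 had scaled signals of 1674, 1719.9 and 2236 on mES replicates 1 to 3 and of 1013, 1205 and 811 on EpiSC replicates 1 to 3. These groups did not overlap either. Dnajc4 was 1.87-fold lower (log2 difference -0.90 ± 0.22, adjusted p = 0.0284). Dnajc4 did not pass without mES replicate 1, 2 or 3 or EpiSC replicate 1 or 3 (log2 differences from -1.04 to -0.75 and adjusted p up to 0.0849 over the 6 fits with 1 array left out).

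Dnajc12 had scaled signals of 609, 609.7 and 749 on mES replicates 1 to 3 and of 1218, 1333 and 2901 on EpiSC replicates 1 to 3. All EpiSC arrays were above the mES arrays, and EpiSC replicate 3 was far above the other two. Dnajc12, known in humans as a co-chaperone of the aromatic amino acid hydroxylases, was 2.57-fold higher in EpiSC (log2 difference 1.36 ± 0.35, adjusted p = 0.0339). Dnajc12 did not pass without mES replicate 1, 2 or 3 or EpiSC replicate 2 (log2 differences from 0.96 to 1.59 and adjusted p up to 0.0911 over the 6 fits with 1 array left out). Dnajb12 had scaled signals of 1128, 862 and 1045 on mES replicates 1 to 3 and of 1967, 1698 and 2297 on EpiSC replicates 1 to 3. The groups were separate. Dnajb12, an ER membrane J protein whose J domain faces the cytosol, was 1.96-fold higher (log2 difference 0.97 ± 0.20, adjusted p = 0.0155), while its dimmer probe gave -0.18. Dnajb12 did not pass without mES replicate 2 or EpiSC replicate 1 or 3 (log2 differences from 0.86 to 1.08 and adjusted p up to 0.0543 over the 6 fits with 1 array left out).

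Dnaja4 had scaled signals of 160.4, 126 and 124 on mES replicates 1 to 3 and of 210.5, 259.6 and 202 on EpiSC replicates 1 to 3. The EpiSC values were above the mES values by a modest margin. Dnaja4, a cytosolic J protein, was 1.64-fold higher (log2 difference 0.71 ± 0.19, adjusted p = 0.0381). Dnaja4 passed in none of the 6 fits with 1 array left out, mES or EpiSC (log2 differences from 0.60 to 0.83, adjusted p up to 0.108), nor by normexp or with the EpiSC-7 arrays averaged. Among J proteins that did not pass, Dnajb4 had the largest positive difference (0.93 ± 0.34, adjusted p = 0.0845), with EpiSC replicate 3 close to the mES values. Dnajc9, which also binds histones, had 0.42 ± 0.16 (adjusted p = 0.0937), and its dimmer probe passed at 0.64.

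A pair of testis J protein genes varied by over 2 log2 units within a group. Dnajb3 had scaled signals of 280.3, 246 and 141 on mES replicates 1 to 3 and of 13.9, 198 and 19.8 on EpiSC replicates 1 to 3. EpiSC replicate 2 lay within the mES range, and EpiSC replicates 1 and 3 were far below. Dnajb3 did not pass (log2 difference -2.49 ± 0.98, adjusted p = 0.107), but did without EpiSC replicate 2 (-3.68), with the EpiSC-7 arrays averaged (-2.85) and when slide was a random block (-2.01). Dnajb8 had scaled signals of 41.1, 37.1 and 121 on mES replicates 1 to 3 and of 22.1, 25.6 and 152 on EpiSC replicates 1 to 3. Replicate 3 of each group was high. These replicates lay at position 1 of their slides and the others at position 4. They also differed from the others in line or passage, and the part of any of these was not tested. The log2 difference of Dnajb8 was -0.37 ± 0.84 (adjusted p = 0.767).

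Genes with several probes were compared probe by probe. Several probes entered for 39 genes, of which 28 had log2 differences of 1 sign and 11 of both. No gene had probes past the threshold in both directions. Of the 19 genes called, 8 had 1 entering probe and 11 had several, and in 2 of those 11, Dnajc5g and Hspa9, every probe passed. Another 3 genes, Tcp1, Hspa4l and Dnajc9, had a passing probe that was not their brightest. The probe sequences were not used here, and so hybridisation to relatives or pseudogenes was not tested.

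**Figure D4:**
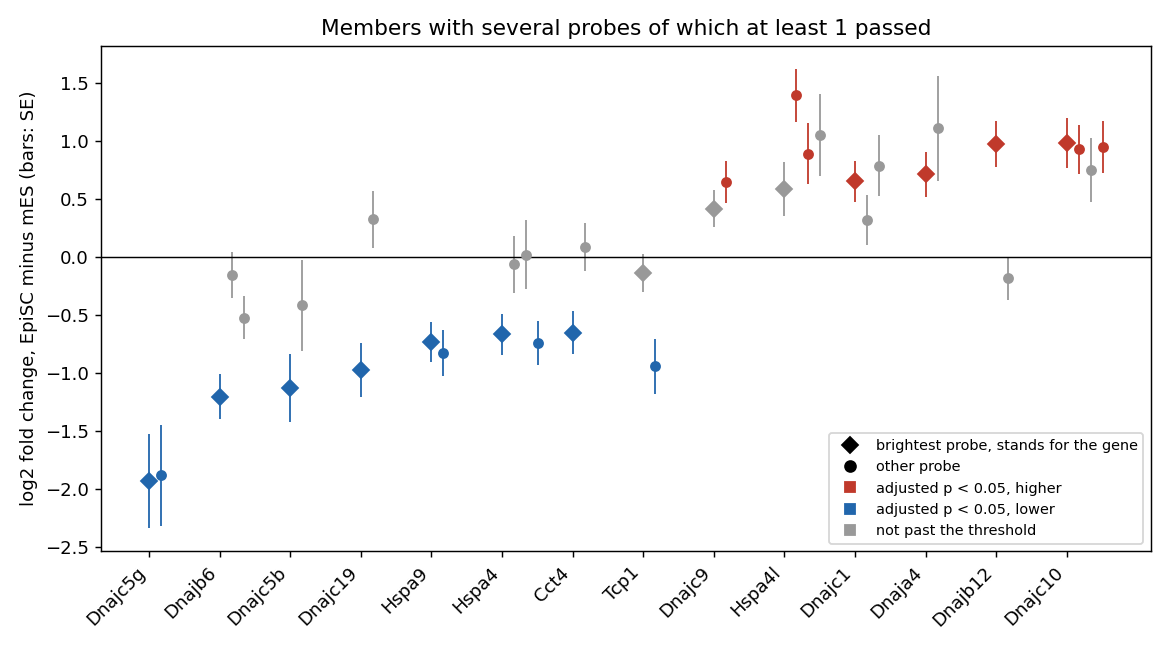
The log2 difference, EpiSC minus mES, of each probe (bars are standard errors, 3 arrays a group) for the 14 members with several entering probes of which at least 1 passed. The probes of Dnajc5g, Hspa9 and Dnajc10 lie together, whereas those of Dnajc19 and Dnajb12 lie on both sides of 0.

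The heat shock factors, which switch on the cytosolic genes, were measured beside the members. Hsf1 had scaled signals of 31593, 27969 and 30233 on mES replicates 1 to 3 and of 40223, 38216 and 41394 on EpiSC replicates 1 to 3. All EpiSC values were above the mES values. Hsf1, the main heat shock factor, had a log2 difference of 0.42 ± 0.15 and did not pass (adjusted p = 0.085). It did pass by normexp, by quantile normalization, when slide was a random block and with a mean-variance trend. Hsf2 had 0.09 ± 0.22 (adjusted p = 0.768), with the sign turned under 3 alternatives, among them normexp, where another probe stood for the gene. Of 5 tested genes of this list, 2 were lower and 0 higher (2 and 1 by limma's unadjusted p under 0.05). Of all genes, 14.5% were lower and 11.8% higher. This list and those that follow were picked, like the members, with earlier results known. Hsf5, listed as Gm739 and known from testis, was well above background on the 3 mES arrays and on no EpiSC array, and was at least 12.1-fold lower in EpiSC, the mES mean set against the higher, on each EpiSC array, of its own signal and the dimmest that counts as well above background. It entered the fit through its mES signal alone, so that its place among the 2 lower genes supports nothing. Hsf2bp, an Hsf2-binding protein with a role in meiosis, had a log2 difference of -1.80 ± 0.29 (adjusted p = 0.00725).

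Of 28 Hsp70 and Hsp90 co-chaperones, 3 were higher in EpiSC and 4 lower (11.8% and 14.5% of all genes). Their median log2 difference was -0.21. By limma's unadjusted p under 0.05, 3 were higher and 10 lower (3615 and 4955 of all 20688 genes). The EpiSC values lay wholly below the mES values for 13 of the 28 (28.6% of all genes). Bag2 had scaled signals of 286, 294 and 557 on mES replicates 1 to 3 and of 1990, 1662 and 1756 on EpiSC replicates 1 to 3. The groups were far apart. Bag2, an exchange factor that inhibits the ubiquitin ligase Stub1, was 4.99-fold higher (log2 difference 2.32 ± 0.29, adjusted p = 0.0035). Ahsa2, a relative of the Hsp90 activator Ahsa1, was 2.93-fold higher (1.55 ± 0.17, adjusted p = 0.00241), and Bag5 1.72-fold higher (0.78 ± 0.17, adjusted p = 0.0199). Lower were Sugt1 (-1.35 ± 0.20, adjusted p = 0.00556) and Cdc37l1 (-1.34 ± 0.22, adjusted p = 0.0077), both Hsp90 co-chaperones. Fkbp5, a co-chaperone of steroid receptors (-1.08 ± 0.20, adjusted p = 0.0125), and Bag4 (-0.67 ± 0.18, adjusted p = 0.0359) were lower too. Bag5 did not pass without mES replicate 1 or 2 or EpiSC replicate 3 (log2 differences from 0.69 to 0.87 and adjusted p up to 0.0675 over the 6 fits with 1 array left out). Bag4 did not pass without mES replicate 1 or 2 or EpiSC replicate 1, 2 or 3 (log2 differences from -0.77 to -0.57 and adjusted p up to 0.108 over the 6 fits with 1 array left out), nor by median scaling or with the EpiSC-7 arrays averaged. The others named passed in all 6 such fits. Of these, Sugt1, Cdc37l1 and Fkbp5 did not pass without the arrays low in fibroblast markers. Cdc37l1 and Fkbp5 also did not pass at position 4 of the slides alone.

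Among 18 prefoldin subunits and chaperonin partners, 1 was higher and 2 lower (1 and 6 by limma's unadjusted p under 0.05). Of all genes, 11.8% were higher and 14.5% lower. The list's median log2 difference was -0.30. Pdcl2 had scaled signals of 287, 291 and 578 on mES replicates 1 to 3 and of 36.8, 22.6 and 23.3 on EpiSC replicates 1 to 3. The EpiSC values were a small fraction of the mES values. Pdcl2, a phosducin-like gene known from germ cells, was 13.6-fold lower in EpiSC (log2 difference -3.76 ± 0.35, adjusted p = 0.00128), and passed in all 6 fits with 1 array left out. Uri1, a prefoldin-like protein, had -0.84 ± 0.17 (adjusted p = 0.0155) and Pdcl3, a phosducin-like partner of TRiC, had 0.57 ± 0.16 (adjusted p = 0.0429). Uri1 did not pass without mES replicate 2 or EpiSC replicate 1 (log2 differences from -0.93 to -0.74 and adjusted p up to 0.0559 over the 6 fits with 1 array left out). Pdcl3 passed in none of the 6 fits with 1 array left out, mES or EpiSC (log2 differences from 0.52 to 0.64, adjusted p up to 0.124), nor by median scaling or with the EpiSC-7 arrays averaged.

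The list of 26 tested ER folding and unfolded protein response genes, none of them members, had 6 higher and 1 lower in EpiSC (11 and 2 by limma's unadjusted p under 0.05). Of all genes, 11.8% were higher and 14.5% lower. The list's median log2 difference was 0.46, and 13 of the 26 had EpiSC values wholly above the mES values, as 20.0% of all genes did. Manf had scaled signals of 8539.6, 7012 and 7283 on mES replicates 1 to 3 and of 18606, 11917 and 15052 on EpiSC replicates 1 to 3. EpiSC replicate 2 was again the lowest of the EpiSC arrays. Manf, a secreted protein induced by ER stress, was 1.97-fold higher (log2 difference 0.98 ± 0.22, adjusted p = 0.0204). Sel1l (1.03 ± 0.21, adjusted p = 0.0153) and Syvn1 (0.77 ± 0.20, adjusted p = 0.0331), which form the ligase complex of ER-associated degradation, were higher. So was Hyou1, the Hsp110 of the ER (0.79 ± 0.23, adjusted p = 0.049). Ddit3 (CHOP), a transcription factor induced late in ER stress, was lower (-0.66 ± 0.20, adjusted p = 0.0499). Manf did not pass without mES replicate 2 or EpiSC replicate 1 or 3 (log2 differences from 0.82 to 1.14 and adjusted p up to 0.0666 over the 6 fits with 1 array left out). Sel1l did not pass without mES replicate 2 or EpiSC replicate 1 (log2 differences from 0.93 to 1.18 and adjusted p up to 0.0562 over the 6 fits with 1 array left out). Syvn1 did not pass without mES replicate 1, 2 or 3 or EpiSC replicate 1 or 3 (log2 differences from 0.68 to 0.94 and adjusted p up to 0.104 over the 6 fits with 1 array left out). Hyou1 did not pass without mES replicate 1, 2 or 3 or EpiSC replicate 1 or 3 (log2 differences from 0.65 to 0.97 and adjusted p up to 0.141 over the 6 fits with 1 array left out), nor with the EpiSC-7 arrays averaged or with position on the slide as a block. Ddit3 passed in none of the 6 fits with 1 array left out, mES or EpiSC (log2 differences from -0.80 to -0.52, adjusted p up to 0.13), nor by median scaling, with every probe by itself, with the EpiSC-7 arrays averaged or with a mean-variance trend.

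The 14 mitochondrial folding and protease genes had 6 lower and 0 higher (10 and 1 by limma's unadjusted p under 0.05). Of all genes, 14.5% were lower and 11.8% higher. The list's median log2 difference was -0.52. In 11 of the 14, the EpiSC values lay wholly below the mES values, as in 28.6% of all genes. Trap1 had scaled signals of 10304, 9982 and 11202 on mES replicates 1 to 3 and of 4471, 4274 and 4717 on EpiSC replicates 1 to 3. The 2 groups were tight and separate. Trap1, the Hsp90 of the mitochondria, was 2.34-fold lower in EpiSC (log2 difference -1.23 ± 0.15, adjusted p = 0.00331). Clpp, a matrix protease (-1.24 ± 0.16, adjusted p = 0.00402), and Hscb, a J protein of iron-sulfur cluster assembly (-1.38 ± 0.25, adjusted p = 0.0107), were lower. With Trap1, they passed in all 6 fits with 1 array left out. Unlike Trap1, Clpp and Hscb did not pass without the arrays low in fibroblast markers, nor did Hscb at position 4 of the slides alone. Clpb, a disaggregase, was lower as well (-0.99 ± 0.24, adjusted p = 0.0277). Clpb did not pass without mES replicate 1, 2 or 3 or EpiSC replicate 1 or 3 (log2 differences from -1.21 to -0.81 and adjusted p up to 0.0875 over the 6 fits with 1 array left out).

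The files hold 10 further genes of these families under older names that the rule by name does not reach, of which 9 were tested. Hsph1 had scaled signals of 26167, 19956 and 13257 on mES replicates 1 to 3 and of 22238, 19411 and 21997 on EpiSC replicates 1 to 3. The groups overlapped. Hsph1, listed as Hsp110 and the heat-inducible member of that family, had a log2 difference of 0.15 ± 0.27 (adjusted p = 0.699), with a negative sign without mES replicate 3 and at position 4 alone. Hspa13, listed as Stch and an Hsp70-like protein of microsomes, was 2.09-fold higher in EpiSC (1.07 ± 0.24, adjusted p = 0.0219), and Cct8l1 was lower (-0.78 ± 0.23, adjusted p = 0.049). Both were named after their values were seen. Hspa13 did not pass without mES replicate 2 or 3 or EpiSC replicate 1 or 3 (log2 differences from 0.94 to 1.26 and adjusted p up to 0.0747 over the 6 fits with 1 array left out). The other 6 did not pass.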

How the data were processed

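Per the labels' protocols, TRIzol total RNA carried the Cy3 label on one-colour Agilent arrays, each with 45018 spots. The deposited scanner files give linear intensity per spot from Agilent Feature Extraction 9.1.3.1, per the file headers, which name spatial and multiplicative detrending and no subtraction of local background. The authors deposited this processed intensity without normalization between arrays. The series' value table, also intensity deposited by the authors, differed from it by at most 0.00716 on the log2 scale, and so is linear, uncentred and holds no ratio. The medians of its columns were 78.9 for mES replicate 1, 84.9 for mES replicate 2 and 68.7 for mES replicate 3. Those of EpiSC were 117, 80.25 and 82.95 in the same order. For the probes, no genome build is given in the sources read.

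Control and outlier spots (12 to 24 an array) were left out, spots of 1 probe were averaged on the log2 scale, and each array's 75th percentile over probes was subtracted. Printed scaled signals are these values brought back to a linear scale with the arrays' mean percentile. Probes entered when all arrays of either group showed them well above background and no group missed more than 1 value, and a gene was represented by its brightest entering probe. Of the probes, 22951 were named by RefSeq accession (GRCm38.p6) and 18223 kept the file's name, which can be old. EpiSC were compared with mES by limma 3.58.1 under R 4.3.3 (lmFit and eBayes, 2-sided, no covariate), with Benjamini-Hochberg adjustment over 20688 genes. The median standard error was 0.241, which 3 arrays a group limit. On simulated data with 200 of 20688 genes changed, 2-fold and 4-fold mixed, 77 were recovered with 8 false calls. Far more genes passed in the data (26.3%), which moves the adjusted threshold, so that this recovery does not measure the sensitivity of the test here.

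The gene family, lists, tests and places in the cell were chosen with earlier results of these data known. Genes named are the main cytosolic, ER and mitochondrial chaperones and every Cct gene, the 12 largest changes each way past the threshold, and members varying by over 2 log2 units within a group. Of other lists, up to 4 genes past the threshold each way were named, with Hsf1 and Hsf2. Other members that are named were chosen after their values were seen. Alternatives were another background correction, scaling, filter, probe choice, variance model, value source, slide or position term, EpiSC-7 averaged, and each array left out. Leaving out mES replicate 2 and EpiSC replicate 3 together was added after seeing the data.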

Additional observations from a re-analysis of the deposited data

How the results depend on the processing

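The counts of members higher and lower in EpiSC, 7 and 12, were within 1.5 times of these values by normexp, quantile normalization, no filter on dim probes, a filter on all 6 arrays, every probe by itself, the EpiSC-7 arrays averaged, position as a block, a mean-variance trend and the value table. They moved further in 9 other settings, 5 of them with 1 array left out. With median scaling 7 members were lower. When slide was a random block 15 were higher and 30 lower, but the fitted correlation was negative (-0.68), each slide held 1 group, and 4987 and 6802 of all genes passed. With only the arrays at position 4 there were 1 higher and 4 lower (5.65% and 6.89% of all genes). When the arrays low in fibroblast markers were left out there were 0 and 2 by limma (6 and 10 at an unadjusted p under 0.05), beside 3.92% and 3.39% of all genes. Both settings have fewer samples. With 1 array left out there were 1 to 7 higher and 6 to 11 lower, beside 6.52% to 10.3% and 7.41% to 13.2% of all genes. Hspb1, Hspbap1, Dnajc6, Dnajb6 and Hspa12b passed in all 6 of these fits. Over the 66 named genes and 19 alternatives, 32 values changed sign, all of genes that did not pass. By quantile normalization these were Cct2 (0.083), Cct6a (0.051), Cct7 (0.060), Tcp1 (0.15), Dnaja1 (0.25), Hsp90ab1 (0.43), Hspa8 (0.11) and Hspd1 (0.13). By normexp they were Dnaja1 (0.044), Hsp90ab1 (0.0037) and Hsf2 (-0.13), and there another probe stood for Hsf2. By median scaling they were Dnaja1 (0.092) and Hsp90ab1 (0.085), and under the slide block Cct6a (0.0070), Dnaja1 (0.078) and Hsp90ab1 (0.0020). At position 4 alone they were Dnajb1 (-0.044), Hsf2 (-0.13) and Hsph1 (-0.14), and Dnaja1 was 0.053 when the arrays low in fibroblast markers were left out. With 1 array left out, the values spanned 0 for Cct6a (-0.24 to 0.063), Dnaja1 (-0.075 to 0.084), Dnajb1 (-0.090 to 0.16), Dnajb8 (-1.26 to 0.18), Hsp90ab1 (-0.15 to 0.077), Hsf2 (-0.039 to 0.26) and Hsph1 (-0.11 to 0.38). The causes of these changes were not tested. No paired analysis was possible because replicate numbers were given in accession order and the labels tie no mES sample to an EpiSC sample. Members with signals under 100, such as Dnajc5b, lie near the background, where 3 arrays limit precision most.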

Other observations

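The list of other stress-induced or aggregate-handling genes had 3 of 8 tested genes higher in EpiSC and 0 lower by limma. At an unadjusted p under 0.05 there were 3 and 1, and the list's median log2 difference was -0.01. Of all genes, 11.8% were higher and 14.5% lower by the adjusted p. Serpinh1 had scaled signals of 11413, 7595 and 12205 on mES replicates 1 to 3 and of 57539, 51300.2 and 51425 on EpiSC replicates 1 to 3. All EpiSC values were several times the mES values. Serpinh1 (Hsp47), the collagen chaperone of the ER whose name does not match the rule, was 5.24-fold higher (log2 difference 2.39 ± 0.22, adjusted p = 0.00137) and passed in all 6 fits with 1 array left out. Clu, a secreted chaperone, was higher (1.78 ± 0.47, adjusted p = 0.0363), as was Vcp, a segregase that feeds the proteasome (0.59 ± 0.15, adjusted p = 0.0301). Clu did not pass without mES replicate 1, 2 or 3 or EpiSC replicate 1 or 3 (log2 differences from 1.28 to 2.23 and adjusted p up to 0.0947 over the 6 fits with 1 array left out). Vcp did not pass without mES replicate 1 or 2 or EpiSC replicate 1, 2 or 3 (log2 differences from 0.56 to 0.63 and adjusted p up to 0.0952 over the 6 fits with 1 array left out), nor with the EpiSC-7 arrays averaged. Serpinh1 is abundant in fibroblasts, and the part of these cells in its difference was not tested. The summed signal over 14 fibroblast markers was 55759.9, 17133 and 89226 on mES replicates 1 to 3 and 90273, 56388 and 43748 on EpiSC replicates 1 to 3. Most of the sum on EpiSC replicate 3 came from Tagln (27053) and Acta2 (11169). The median log2 deviation of the fibroblast markers was lowest on that array (-1.87), below mES replicate 2 (-1.62).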
